A study of Rattus norvegicus with 9 samples.

Results

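The enzymes described here build, lengthen and desaturate fatty acids: the elongases Elovl1, Elovl2, Elovl5 and Elovl6, the desaturases Fads1, Fads2, Scd and Scd2, and the fatty acid synthase Fasn. Every probe set to which the platform's annotation gives 1 of these symbols alone was taken, which gave 15 probe sets for the 9 genes, of 31042 probe sets tested. They were measured on 9 expression arrays of hypothalamus, 1 array per male rat aged 13 weeks. The 4 rats of the noodle diet ate a medium-fat feed that was 30% instant noodle by weight, drew 26% of its energy from fat, and carried the noodles' seasonings. The 5 rats of the control diet ate that feed with the seasonings left out, so noodles and fat were common to both diets. Both groups were given about 60 g of feed daily per kg of body weight, and the feeding period is given as 30 days in one label and as 4 weeks in another. No strain is named in the labels used here. The comparison asks whether seasonings alter transcripts of lipid metabolism in this tissue.

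Fatty acid synthase makes palmitate, which Elovl6 lengthens to stearate and the Scd enzymes turn into monounsaturated fatty acids such as oleate. Elovl1 makes the saturated and monounsaturated very-long-chain fatty acids of sphingolipids, Elovl5 and Elovl2 lengthen polyunsaturated fatty acids, and Fads1 and Fads2 add double bonds to these. In the brain such lipids are needed in quantity by oligodendrocytes, whose myelin is rich in very-long-chain sphingolipids, and Scd2 is the stearoyl-CoA desaturase best known from rodent brain, whereas Scd is best known from liver.

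Values are deposited log2 values. They are compared between rats within a probe set, and never between probe sets, because probes differ in how strongly they bind. Array medians lay between 6.777 and 6.785. The deposited values hardly differ between arrays for most probe sets: in 95.9% of those tested the highest and lowest rat lay less than 0.01 log2 units apart, and in 1223 more than 0.05. Probe sets under 0.01 are called compressed here and those over 0.05 variable. No fold change can be taken from a compressed probe set. As a check of the tissue, hypothalamic peptide genes were read: Pmch, which encodes melanin-concentrating hormone, lay between 11.85 and 12.37, Avp (vasopressin) between 10.49 and 11.84 and Hcrt (orexin) between 8.75 and 10.05. Control rat 2 was lowest for both Pmch and Hcrt, the other rats standing at 12.08 or more and at 9.60 or more. Avp was lowest in noodle-diet rat 1. Whether the dissections differed was not tested.

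Among the 15 probe sets 4 were variable, 1 of Elovl1, both of Elovl5 and the single one of Scd. Of the 4 probe sets of Scd2, 1 ranged over 0.040 and lies between the limits. The other 10 were compressed, with ranges of 0.00025 to 0.0017, and they are all the probe sets of Elovl2, Elovl6, Fads1, Fads2 and Fasn together with 3 of Scd2. The deposited data therefore carry differences between animals of readable size for 4 of the 9 genes.

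The promoters of the elongases that varied most are shown, as the sequence next to the transcripts described below, from RefSeq on rat build GRCr8. Each holds the 250 bases before the annotated start, on the plus strand. Capitals mark matches on either strand to CCAAT (the box bound by NF-Y), CACGTG (an E-box), GGGCGG (a box of Sp factors) or TCACNCCAC (a form of the sterol regulatory element). No marked matches overlap.
Elovl5 (chr8:87670914-87671163): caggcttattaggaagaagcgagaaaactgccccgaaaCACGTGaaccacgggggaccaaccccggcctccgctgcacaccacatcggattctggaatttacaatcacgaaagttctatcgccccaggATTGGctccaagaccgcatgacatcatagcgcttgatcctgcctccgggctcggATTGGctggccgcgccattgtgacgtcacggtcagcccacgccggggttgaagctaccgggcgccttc
Elovl1 (chr5:137247905-137248154): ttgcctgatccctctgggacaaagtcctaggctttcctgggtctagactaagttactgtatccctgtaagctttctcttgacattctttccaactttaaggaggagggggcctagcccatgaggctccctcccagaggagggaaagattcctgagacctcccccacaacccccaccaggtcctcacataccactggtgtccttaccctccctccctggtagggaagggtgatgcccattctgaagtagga
The Elovl5 window holds CCAAT on the minus strand at -122 and at -68 from the start, and the palindrome CACGTG at -212. Of the 33469 windows of this length in the table, 34% hold CCAAT, 5.59% hold CACGTG, 30.5% hold GGGCGG and 0.974% hold TCACNCCAC. The Elovl1 window holds none of the searched letters. Its start lies 1374 bases downstream of the most upstream start annotated for the gene, so it is the window of an inner start.

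Elovl5 varied together with meningeal genes. Its probe set 1388348_at measured 10.07, 9.88, 9.86 and 9.92 in noodle-diet rats 1, 4, 7 and 13, against 9.95, 9.94, 10.03, 9.80 and 9.81 in control rats 2, 5, 8, 11 and 14. The highest values were those of noodle-diet rat 1 and control rat 8, the lowest those of control rats 11 and 14, and the diets overlapped.

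To set these values against the tissue's make-up, an index was formed for each rat from 16 genes of meningeal fibroblasts and barrier cells (among them Ogn, Dcn, Lum, Col1a1, Col1a2, Igf2 and Slc13a4). It is the mean deviation of those genes, in log2 units, from their mean over the 9 rats. All 16 were measured and 15 were variable. The index stood at 0.59, -0.33, -0.43 and 0.11 in noodle-diet rats 1, 4, 7 and 13, against 0.33, 0.22, 0.46, -0.46 and -0.49 in control rats 2, 5, 8, 11 and 14. It averaged -0.014 ± 0.47 in noodle-diet rats and 0.011 ± 0.46 in control rats (exact 2-sided permutation p = 0.929 over 126 splits). The meningeal gene Ogn alone, which encodes a matrix proteoglycan, measured 8.71, 7.13, 6.92 and 7.89 in the noodle-diet rats in the same order, against 8.13, 7.99, 8.33, 6.80 and 6.82 in the control rats.

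In limma with diet as a covariate, the Elovl5 probe set 1388348_at rose by 0.21 log2 units per unit of the meningeal index (SE 0.019, 95% interval 0.16 to 0.25, adjusted p = 0.0103 over all 31042 probe sets). It was the only one of the 15 probe sets called, against 148 probe sets (0.477%) of all those tested. Such counts over the table, here and below, keep in the genes that form the index. Without noodle-diet rat 1 the slope was 0.20 and its adjusted p 0.0997, without control rat 11 they were 0.20 and 0.0575, and without control rat 14 they were 0.21 and 0.0549, so the call is lost when any 1 of these 3 rats is left out, with slopes of 0.20 to 0.21. Over the table the calls fell as well in these 3 fits, from 148 to 38, 60 and 64 in the same order. Leaving out the other rats 1 at a time kept the call, with 62 to 122 probe sets of the table called.

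**Figure D1:**
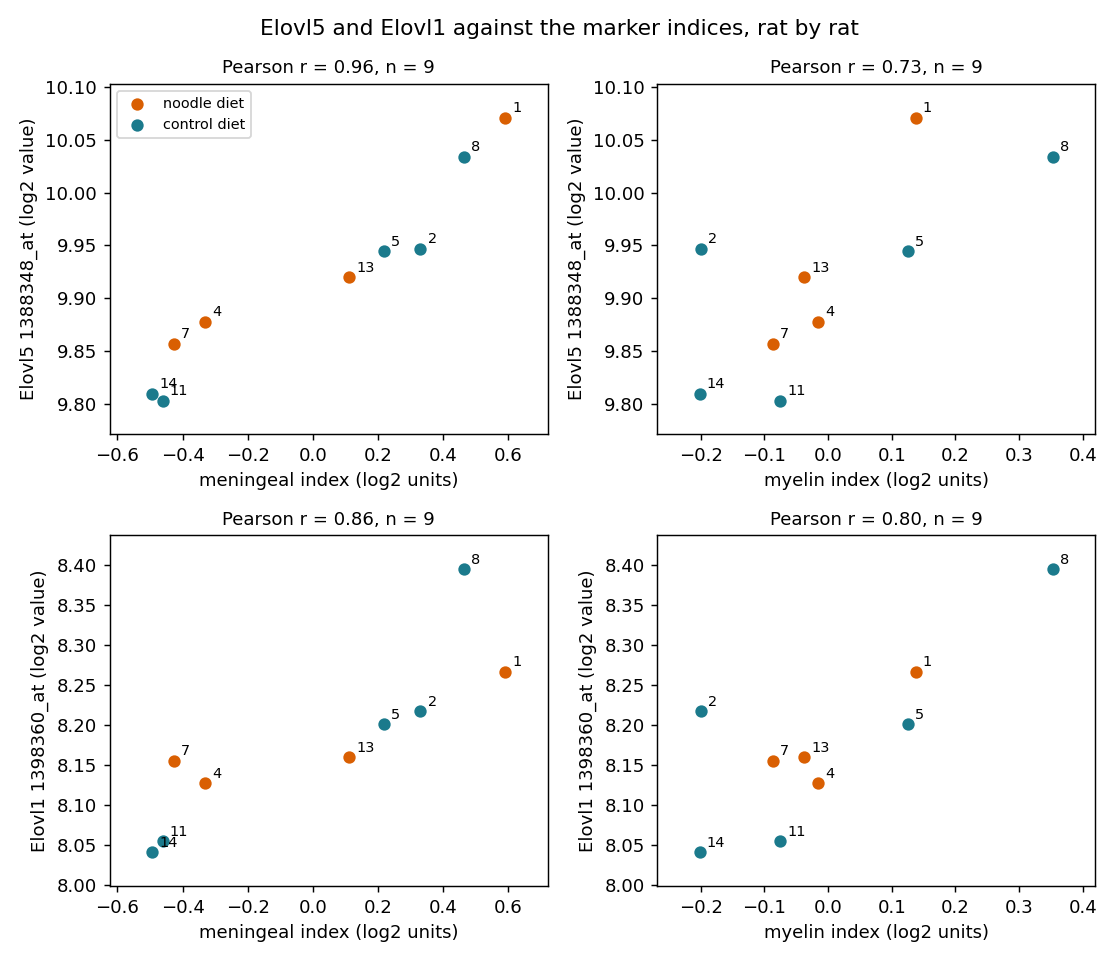
Log2 values of Elovl5 (probe set 1388348_at, upper panels) and Elovl1 (probe set 1398360_at, lower panels) against the meningeal index (left) and the myelin index (right), both in log2 units. Each point is 1 rat with its number, and Elovl5 lies close to a line against the meningeal index (r = 0.96), whereas control rat 2 stands off the trend against the myelin index.

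Over the 9 rats the correlation of this probe set with the meningeal index had Pearson's r = 0.96 (exact 2-sided permutation p = 5.51e-06) and Spearman's rho = 0.98 (exact permutation p = 4.96e-05). It was one of 10 such relations, of 5 probe sets with 2 indices, and the adjusted p of each is that of its limma slope. Leaving out control rats 11 and 14, the farthest from the median index, r was 0.93. Within the diets r was 0.97 over the 4 noodle-diet rats and 0.98 over the 5 control rats, values given as a description only. The index has a gap of 0.44 between -0.33 and 0.11, with 5 rats above it and 4 below, both diets lying on either side. Above that gap r was 0.96 and below it 0.90, again as a description, and control rats 11 and 14 stood in opposite order on index and gene. Of the 1223 variable probe sets, 61 (4.99%) had a higher r with this index, and the median r was 0.30. The genes that form the index were not left out of this ranking.

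Elovl1 ranked the rats in a similar order. Probe set 1398360_at measured 8.27, 8.13, 8.16 and 8.16 in noodle-diet rats 1, 4, 7 and 13, against 8.22, 8.20, 8.39, 8.06 and 8.04 in control rats 2, 5, 8, 11 and 14. Control rat 8 was highest and control rats 11 and 14 were lowest, so the noodle-diet rats lay inside the control range. Elovl1 and Elovl5 1388348_at correlated with r = 0.91 (exact permutation p = 0.00062) and rho = 0.95 (exact permutation p = 0.00035), the highest r among the 10 pairs of the 5 probe sets, with p unadjusted. The next highest r, 0.66, was that of Elovl5 1387630_at with Scd2 1386889_at (rho = 0.73, unadjusted exact permutation p = 0.048 for r and 0.031 for rho).

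The Elovl1 slope on the meningeal index was 0.22 (SE 0.050, 95% interval 0.097 to 0.33), with an unadjusted limma p of 0.00377 and an adjusted p of 0.236, which does not pass. Its correlation with that index had r = 0.86 (exact permutation p = 0.0010) and rho = 0.97 (exact permutation p = 0.00017), and r = 0.75 without control rats 11 and 14. Of the 1223 variable probe sets, index genes kept in, 180 (14.7%) had a higher r with the meningeal index than Elovl1. Among variable probe sets alone, where 20.1% of 1223 were called, the Elovl1 slope passed with an adjusted p of 0.0412, and 2 of the 4 variable probe sets, those of Elovl1 and Elovl5 1388348_at, were called. The unadjusted limma p of Elovl1 in that fit was higher, 0.00797. For Elovl5 1388348_at it was 0.000693, against 1.72e-05 over all probe sets, at the same slope of 0.21. Its limma p therefore depends on which probe sets enter the fit. Probe sets were kept there by their range over these same rats, so these passes add no separate support.

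Elovl1 and Elovl5 also correlated with myelin genes, without passing the fit over all probe sets. The myelin index was formed in the same way from 14 measured genes (of 15 listed, among them Mog, Mbp, Mobp, Mag and Cnp), all variable. It stood at 0.14, -0.015, -0.087 and -0.037 in noodle-diet rats 1, 4, 7 and 13, against -0.20, 0.12, 0.35, -0.075 and -0.20 in control rats 2, 5, 8, 11 and 14. Control rat 8 stood 0.22 above the next rat, and diet means were -0.00046 ± 0.097 in noodle-diet rats and 0.00037 ± 0.24 in control rats (exact permutation p = 1.0).

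None of the 15 probe sets was called on the myelin index by limma, where 58 probe sets (0.187%) were called over the table. At an unadjusted p under 0.05 there were 3 of 15 (Elovl1, Elovl5 1388348_at and the compressed Fads2 probe set), where 8.86% of all probe sets stood. The Fads2 slope was negative (-0.0022), unlike those of the elongases, and with a range of 0.0017 it is not read. On the meningeal index 2 of 15 stood there (Elovl5 1388348_at and Elovl1), where 8.75% of all probe sets did. Elovl1 had a slope of 0.49 on the myelin index (SE 0.14, adjusted p = 0.384) and r = 0.80 (exact permutation p = 0.0103), with rho = 0.67 (exact permutation p = 0.059). Elovl5 1388348_at had a slope of 0.38 (SE 0.13, adjusted p = 0.491) and r = 0.73 (exact permutation p = 0.026), with rho = 0.65 (exact permutation p = 0.067). Of the 1223 variable probe sets, index genes kept in, 161 (13.2%) had a higher r with the myelin index than Elovl1. For Elovl5 1388348_at these were 226 (18.5%). Without noodle-diet rat 1 and control rat 8, the farthest from the median, r was 0.33 for Elovl1 and 0.37 for Elovl5, so the size of both correlations rests on that pair of rats. In limma fits lacking 1 rat each, the Elovl1 slope on the myelin index lay between 0.31 without control rat 8 (adjusted p = 0.851) and 0.65 without control rat 2 (adjusted p = 0.0891), and was 0.47 without noodle-diet rat 1 (adjusted p = 0.425). For Elovl5 1388348_at it lay between 0.31 without noodle-diet rat 1 (adjusted p = 0.487) and 0.52 without control rat 2 (adjusted p = 0.205), and was 0.41 without control rat 8 (adjusted p = 0.826).

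Both indices were also put into a single fit. There Elovl5 1388348_at kept a slope of 0.18 on the meningeal index (SE 0.019, unadjusted p = 9.17e-05, adjusted p = 0.0508) beside 0.11 on the myelin index (SE 0.045, adjusted p = 0.675). Elovl1 had 0.15 on the meningeal index (SE 0.051, adjusted p = 0.621) beside 0.27 on the myelin index (SE 0.12, adjusted p = 0.714). No slope of either gene passed in that fit.

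Other cell types' markers moved with these elongases too, and their part in the result was not tested. The p-values in this paragraph are unadjusted, out of 45 correlations with marker lists. The index of oligodendrocyte precursors, from 6 measured genes of which 4 were variable, correlated with Elovl1 at r = 0.92 (exact permutation p = 0.00024) and with Elovl5 1388348_at at r = 0.90 (exact permutation p = 0.00073). For Elovl1 this was the highest r with any list, above 0.86 with the meningeal index. By rho the meningeal index stood higher, at 0.97 against 0.90. The precursor index holds Pdgfra, which fibroblasts also express. The index of ependymal and choroid plexus cells, with 3 variable genes of 9 measured (Ttr, Dynlrb2 and Rarres2), correlated with Elovl5 1388348_at at r = 0.92 (exact permutation p = 0.00044) and with Elovl1 at r = 0.77 (exact permutation p = 0.0135). Astrocyte markers, 7 variable of 11 measured, correlated with Elovl5 1388348_at at r = 0.80 (exact permutation p = 0.0108; rho = 0.82; r = 0.58 without control rats 11 and 14) and with Elovl1 at r = 0.72 (exact permutation p = 0.027; rho = 0.77; r = 0.37 without those rats). Neuronal markers ran the other way, at r = -0.64 for Elovl5 1388348_at (exact permutation p = 0.062) and r = -0.61 for Elovl1 (exact permutation p = 0.077). None of the 9 endothelial markers measured was variable, so their index, which spanned 0.00042, says nothing. In bulk tissue, fewer cells of a type and less RNA per cell cannot be told apart, and the indices and the elongases come from the same arrays.

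**Figure D2:**
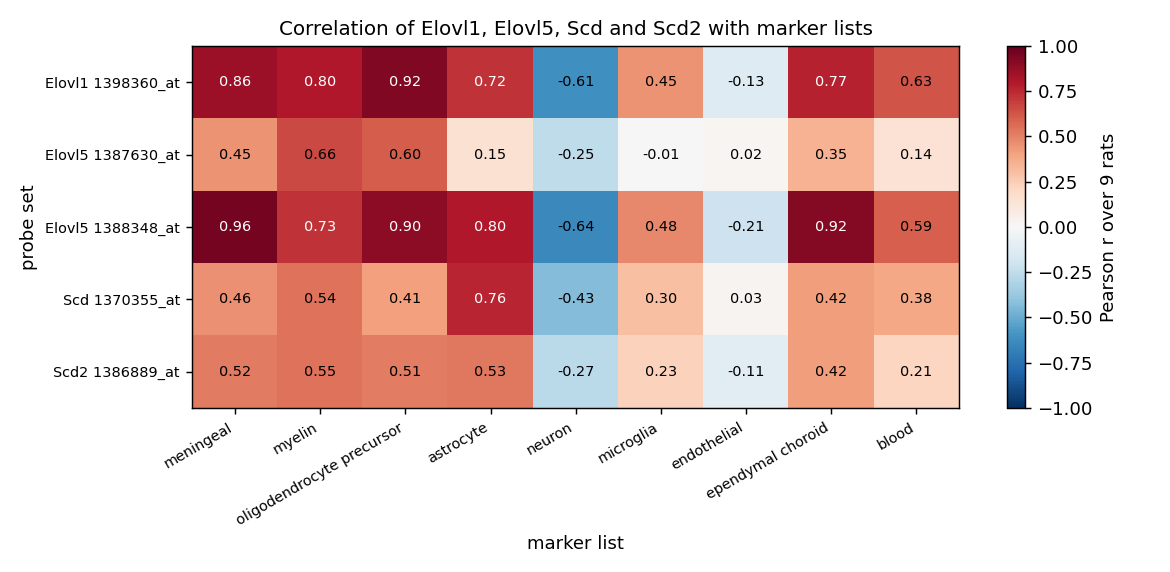
Pearson's r over the 9 rats of the 5 probe sets that ranged over more than 0.01 log2 units (rows) with the indices of 9 marker lists (columns), on a scale from blue (negative) to red (positive). Elovl1 and Elovl5 1388348_at have r of 0.72 to 0.96 with the meningeal, myelin, oligodendrocyte precursor, astrocyte and ependymal lists, and the highest r of Scd is that with the astrocyte list (0.76).

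The genes most like these probe sets over the 9 rats were sought among 936 variable probe sets with 1 symbol. For Elovl5 1388348_at they were Itgbl1 (r = 0.98), Efemp1 (r = 0.98), which encodes the matrix protein fibulin-3, and Igfbp6 (r = 0.98), an insulin-like growth factor binding protein. For Elovl1 they were Vtn (r = 0.98), which encodes the adhesive glycoprotein vitronectin, Fibin (r = 0.96) and Agpat4 (r = 0.95), an acyltransferase of phospholipid synthesis. These are the highest of many correlations and carry no test.

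The other Elovl5 probe set, 1387630_at, ranked the rats otherwise. It measured 7.71, 7.65, 7.67 and 7.69 in noodle-diet rats 1, 4, 7 and 13, against 7.64, 7.66, 7.71, 7.68 and 7.66 in control rats 2, 5, 8, 11 and 14. Noodle-diet rat 1 and control rat 8 were again high, but control rat 2 was lowest and control rat 11 was not low. The probe sets of Elovl5 correlated with each other at r = 0.55 (exact permutation p = 0.13) and rho = 0.35 (exact permutation p = 0.36). Its slope was 0.025 on the meningeal index (SE 0.018, adjusted p = 0.787) and 0.088 on the myelin index (SE 0.037, adjusted p = 0.567), with r = 0.45 (exact permutation p = 0.22) and r = 0.66 (exact permutation p = 0.053). It ranged over 0.069 between rats, and whether it reports the same transcripts was not tested. The genes most like it were Serp1 (r = 0.95) and Ssr3 (r = 0.94), which act at protein translocation into the endoplasmic reticulum, and the gap junction gene Gja1 (r = 0.92).

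Scd followed neither meningeal nor myelin genes past the test. Its probe set measured 7.24, 7.25, 7.19 and 7.18 in noodle-diet rats 1, 4, 7 and 13, against 7.21, 7.28, 7.22, 7.21 and 7.12 in control rats 2, 5, 8, 11 and 14. Control rat 5 was highest and control rat 14 lowest. The slope was 0.049 on the meningeal index (SE 0.037, adjusted p = 0.798) and 0.14 on the myelin index (SE 0.083, adjusted p = 0.691). The corresponding r was 0.46 (exact permutation p = 0.22) and 0.54 (exact permutation p = 0.13), and the rho with myelin genes was 0.73 (exact permutation p = 0.031). Without noodle-diet rat 1 and control rat 8 the r with myelin genes was 0.77. The slope on the myelin index was 0.32 without control rat 8 (unadjusted p = 0.027, adjusted p = 0.719) and 0.067 without control rat 14 (adjusted p = 0.893).

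The astrocyte index (among its genes Gfap, Aqp4 and S100b) correlated with Scd at r = 0.76 (exact permutation p = 0.0145) and rho = 0.83 (exact permutation p = 0.0083), and r was 0.79 without control rats 11 and 14. That r is below the one of Elovl5 1388348_at with these markers, 0.80. This relation was not among those planned for a fit over all probe sets and is unadjusted, out of 45 correlations with marker lists. The genes most like Scd were Add3 (r = 0.90), a membrane skeleton gene, Hlf (r = 0.90), a transcription factor under clock control, and Apoa4 (r = 0.89), an apolipoprotein.

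Scd2 was represented by 4 probe sets, of which 1386889_at gave small but visible differences. It measured 9.683, 9.650, 9.652 and 9.659 in noodle-diet rats 1, 4, 7 and 13, against 9.643, 9.668, 9.654, 9.658 and 9.643 in control rats 2, 5, 8, 11 and 14. Noodle-diet rat 1 was highest, and control rats 2 and 14 were lowest. Its slopes were 0.016 on the meningeal index (SE 0.0088, adjusted p = 0.705) and 0.039 on the myelin index (SE 0.021, adjusted p = 0.660). The r was 0.52 with meningeal genes (exact permutation p = 0.15) and 0.55 with myelin genes (exact permutation p = 0.13; rho = 0.70, exact permutation p = 0.043). Without noodle-diet rat 1 and control rat 8 the r with myelin genes was 0.90. The slope on the myelin index was 0.097 without control rat 8 (unadjusted p = 0.0024, adjusted p = 0.486) and 0.026 without noodle-diet rat 1 (adjusted p = 0.684). The other 3 Scd2 probe sets averaged 12.01, 7.13 and 6.83 and ranged over 0.00076, 0.00045 and 0.0012. Scd and Scd2 are close paralogs, and whether a probe set of one binds transcripts of the other was not tested.

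**Figure D3:**
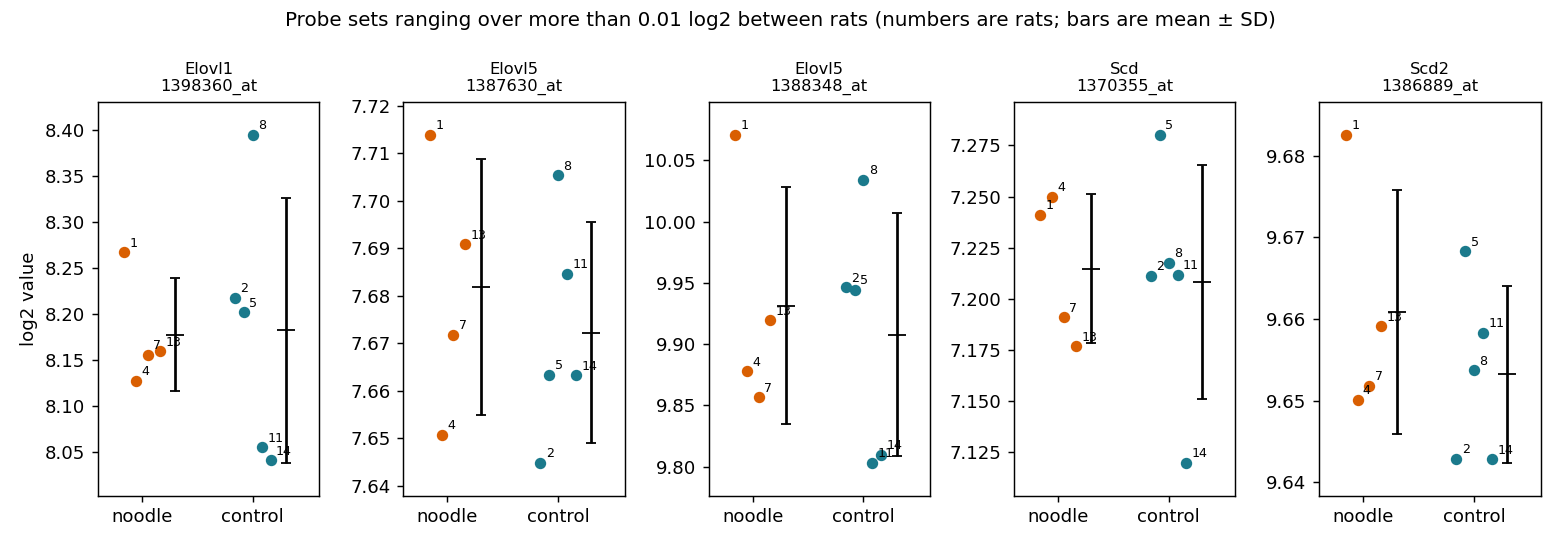
Deposited log2 values of the 5 probe sets that ranged over more than 0.01 log2 units, 1 point per rat with its number, noodle diet left and control diet right, with mean ± SD as bars (n = 4 and 5). Axes differ between panels and do not start at 0, and the diets overlap in every panel.

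The compressed probe sets gave levels but no usable differences. Fads1, of polyunsaturated fatty acid desaturation, averaged 9.71 over the 9 rats with an SD of 0.00011, and Fads2 averaged 7.61 with an SD of 0.00054. The Fasn probe sets averaged 8.34 (SD 0.00013) and 9.47 (SD 7.52e-05). Elovl2 averaged 7.95 (SD 0.00013), and Elovl6 8.56 (SD 8.96e-05) and 7.81 (SD 9.19e-05). Nothing about diet or tissue make-up can be read for these 5 genes from values this uniform.

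No elongase or desaturase passed the test of the diets. By limma 0 of the 15 probe sets passed, as did 0 of 31042 over the table (0.0%), and the smallest adjusted p of the table was 0.999995. At an unadjusted p under 0.05 there were 0 of 15, against 712 (2.29%) over the table, and the lowest among the 15 was 0.078, of a compressed Scd2 probe set. In 0 of the 15 did the diets separate without overlap, against 0.567% of all probe sets. The median difference over the 15 was 9.1e-05, beside -4.62e-06 over all probe sets. That median is the value of a compressed probe set, of Fads1, and no direction is read from it.

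Elovl1 averaged 8.18 ± 0.061 in noodle-diet rats and 8.18 ± 0.14 in control rats (SD, n = 4 and 5), a difference of -0.0046 with a 95% interval of -0.18 to 0.17. Elovl5 1388348_at averaged 9.93 ± 0.097 in noodle-diet rats and 9.91 ± 0.099 in control rats, a difference of 0.024 (-0.12 to 0.17). For Elovl5 1387630_at the difference was 0.0096 (-0.027 to 0.046), for Scd 0.0065 (-0.066 to 0.079) and for Scd2 1386889_at 0.0077 (-0.011 to 0.027). Without noodle-diet rat 1 the Scd2 difference was 0.00048. These intervals bound differences on the scale of the deposited values, where most probe sets hardly vary between rats. The compressed probe sets differed by -9.57e-05 to 0.00027, 6 of 10 above 0.

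**Figure D4:**
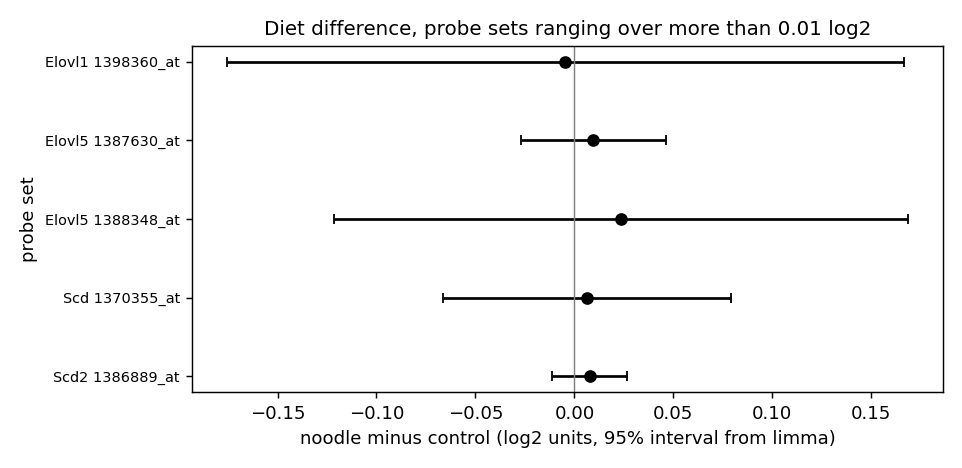
Difference between the diets, noodle minus control, in log2 units, for the 5 probe sets that ranged over more than 0.01 log2 units. Points are limma estimates and bars their 95% intervals, and every interval includes 0.

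Other genes of the pathway did not pass either. Here and in the lists below, each gene was read only from its probe set of highest mean, and its other probe sets were not examined. Of 28 listed partners in fatty acid synthesis, elongation, desaturation and activation 23 were measured and 3 were variable. None passed on diet, on the meningeal index or on the myelin index, in either direction. At an unadjusted limma p under 0.05 there were 0, 2 and 1 of the 23, where 2.29%, 8.75% and 8.86% of all probe sets stood. Counts this small are not read as a result about the list. Acsl1, which activates long-chain fatty acids, averaged 8.29 ± 0.15 in noodle-diet rats and 8.25 ± 0.17 in control rats. Its limma slope on the meningeal index was 0.29 (SE 0.080, adjusted p = 0.345). Cyb5a, the electron donor of the desaturases, averaged 9.22 ± 0.18 in noodle-diet rats and 9.18 ± 0.079 in control rats, with a meningeal slope of 0.20 (SE 0.078, adjusted p = 0.515). Degs1, the dihydroceramide desaturase, averaged 9.82 ± 0.16 in noodle-diet rats and 9.78 ± 0.088 in control rats, with a slope of 0.16 (SE 0.082, adjusted p = 0.657).

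Of 20 listed genes of sterol synthesis and uptake, whose regulators overlap with those of the desaturases, 16 were measured and 2 were variable. None passed any of the 3 limma fits in either direction. At an unadjusted p under 0.05 there were 0 on diet, 1 on the meningeal index and 2 on the myelin index. Of all probe sets 2.29%, 8.75% and 8.86% stood there. The slopes of Cyp51 and Idi1, enzymes of that pathway, on the meningeal index were 0.019 (SE 0.051) and 0.028 (SE 0.069). All 14 listed regulators of lipid synthesis, among them Srebf1, Srebf2 and Insig1, were measured. None was variable or passed a fit at its probe set of highest mean, the only one read. At an unadjusted p under 0.05 there were 0 on diet, 1 on the meningeal index and 2 on the myelin index, beside the same shares of all probe sets. The median diet difference was 5.41e-05 for the fatty acid list, 3.33e-05 for the sterol list and -1.1e-05 for the regulators, beside -4.62e-06 over all probe sets. Most genes of these lists were not variable, so no direction is read from these medians.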

How the data were processed

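Total RNA of each hypothalamus was extracted with TRIzol, cleaned on a column, and labelled with biotin as cRNA starting from 100 ng (per the labels' protocols). Deposited log2 values of 31099 probe sets on 9 arrays formed a single table. For probe summarization and array normalization, the method is not stated in the labels used here; the log2 scale was taken from the range of the values. The values were used as deposited. After leaving out 57 control probe sets, 31042 remained, 20826 with 1 symbol in the platform's annotation, 436 with several and 9780 unnamed. The number of arrays limits precision, and no signal over background was used here.

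Fits used limma 3.58.1 in R 4.3.3 (lmFit, eBayes with intensity trend, 2-sided, Benjamini-Hochberg over all 31042 probe sets, threshold 0.05): diet alone, and diet plus the meningeal or myelin index. List genes were read from their probe set of highest mean. Correlations used exact permutation over 362880 pairings. The fits were tested on simulated data. Text names all probe sets of the 9 genes, for variable ones the 3 genes of highest r, and up to 4 variable genes per pathway list. Members, lists and the limits of 0.05 and 0.01 were chosen with earlier results of these data known. Since every array is labelled as its own rat, a p-value reflects variation among these animals.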

Additional observations from a re-analysis of the deposited data

Results flagged for a closer look

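Of 34 groups tested (2 diets for each of the 15 probe sets and for both indices), 2 held a rat that stood apart from its group. Chance alone sets a rat apart in about 1 of 20 groups. Fads2 stood at 7.60612 in control rat 8, with the other control rats at 7.607495 to 7.60784. That rat also had the highest myelin index, 0.35, and Fads2 had an unadjusted limma p of 0.032 for its slope on that index (adjusted p = 0.512). As the same rat is extreme on both, that slope adds no separate support and is not read. Elovl6 1388108_at stood at 8.559804 in noodle-diet rat 4, with the other noodle-diet rats at 8.559542 to 8.559574. Both probe sets are compressed.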

How the results depend on the processing

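No paired analysis was possible because the diets share no rat number in the labels. The number of probe sets called on the meningeal index, 1 of 15, became 9 with quantile normalization (2 positive, 7 negative), 12 with a common array median (2 positive, 10 negative), 2 of 4 among variable probe sets, and 0 with both indices in a single fit. Leaving out single rats, it lay between 0 and 1. Over the table those normalizations called 26780 and 30214 probe sets, 26417 and 29846 of them negative, against 148. Array medians span 6.777 to 6.785 whereas the median probe set ranges over 0.000518, so a common median shifts most probe sets by more than they vary; for quantile normalization the cause was not tested. There the diet difference of Scd2 1386889_at was 0.0029 and its myelin slope 0.011. Elovl5 1388348_at kept a positive meningeal slope throughout (0.19 to 0.22 when 1 rat at a time was left out, adjusted p 0.00923 to 0.0997). The Elovl1 slope passed with quantile normalization (0.21, adjusted p = 0.00465), a common array median (0.21, adjusted p = 0.00359) and among variable probe sets. Its unadjusted limma p with those normalizations was 0.00295 and 0.00347, near the 0.00377 of the main fit. Where most of the table is called the adjustment changes a p-value little, so these passes add no separate support. Calls on diet and on the myelin index stayed at 0 in every alternative, and without control rat 8 no probe set of the table was called on the myelin index. On diet, 0 were called over the table in every alternative. On the myelin index, alternatives over the table called 0 to 96 probe sets as positive and 0 to 3 as negative. Among the 1223 variable probe sets these were 122 and 3. The diet difference of Scd became -0.0062 with array weights. Over fits lacking 1 rat each, diet differences spanned -0.040 to 0.049 for Elovl1, -0.0011 to 0.020 for Elovl5 1387630_at, -0.023 to 0.055 for Elovl5 1388348_at and -0.016 to 0.025 for Scd, so the sign of each depended on single rats. For Scd2 1386889_at they spanned 0.00048 (without noodle-diet rat 1) to 0.011.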
